A study of Mus musculus with 6 samples.

Results

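The guanylate-binding proteins (Gbp genes) and the immunity-related GTPases (Irg genes) form 2 related families of large GTPases that cells make in response to interferon. The genes described here were taken by name from the deposited gene table: Gbp2, Gbp3, Gbp4, Gbp5, Gbp6, Gbp7, Gbp8, Gbp9, Iigp1 and Irgm1, 10 of the 35148 genes listed. Gbp8 was chosen by its counts, which were above 0 in 1 group of libraries only, so its levels are a description and carry no test. RNA came from the paraventricular nucleus of the hypothalamus (PVH) of mice with both Ruvbl2 alleles flanked by loxP sites (Ruvbl2fl/fl), which all 6 samples share. An adeno-associated virus of serotype 2 injected into the PVH carried GFP alone in 3 samples (AAV2-GFP) and Cre recombinase with GFP in 3 samples (AAV2-Cre-GFP), and the tissue was taken 8 weeks later. The labels give no age or sex, no promoter for Cre and no word on whether each library is 1 animal, so p-values measure only the spread between these samples. Every animal received a virus, and no library of uninjected tissue is among the samples.

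Interferon gamma binds a receptor that activates the kinases JAK1 and JAK2 and, further down, the transcription factor IRF1, while type I interferons act through a complex that holds IRF9. Gbp and Irg proteins are prominent products of these pathways: they assemble on membranes, among them the vacuoles that enclose intracellular bacteria and parasites, and Gbp proteins also promote inflammasome activation. In the brain both families are induced in microglia, astrocytes and endothelial cells during infection and inflammation.

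Ruvbl2, the gene that Cre should delete, stood at 9.90, 7.36 and 8.72 FPKM in AAV2-GFP libraries 1 to 3 and at 9.53, 9.10 and 9.51 FPKM in AAV2-Cre-GFP libraries 1 to 3, with no fall (edgeR adjusted p = 0.773; FPKM is the count scaled by gene length and library size). The deposited value covers the whole gene and does not separate deleted from retained exons. The groups are therefore called Cre-labelled and GFP-labelled, and every direction compares libraries so labelled. Library totals ran from 41890769 to 54702785 counts. Markers of other organs stood apart in single libraries: 8 kidney genes reached a sum of 471 and 516 CPM (counts scaled to the library total) in Cre-labelled libraries 2 and 3, where no other library exceeded 49.2 CPM. A sum of 462 CPM over 8 testis genes was found in GFP-labelled library 1, with a maximum of 2.05 CPM elsewhere, and one of 194 CPM over 8 skeletal muscle genes in Cre-labelled library 3, with a maximum of 23.6 CPM elsewhere. The ribosomal RNA model CT010467 took 2072 to 2219 CPM in the GFP-labelled and 7301 to 17633 CPM in the Cre-labelled libraries, with library 1 the highest. PVH markers were present in every library. Oxt, Avp, Crh, Trh and Sim1 summed to 222, 580 and 620 CPM in GFP-labelled libraries 1 to 3. In Cre-labelled libraries 1 to 3 the sums were 167, 192 and 452 CPM. All 5 genes had a lower estimate in the Cre-labelled libraries, with a median log2 difference of -0.83. So did 10639 of all 20865 genes tested. Of the 5, 0 passed in edgeR and 1 in DESeq2 (Crh, DESeq2 adjusted p = 0.00378). Among all genes, edgeR called 2 of 20865 as lower and DESeq2 called 808 of 16455.

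All 9 genes other than Gbp8 had a higher estimate in the Cre-labelled libraries, as did 49% of all genes tested, and none of these differences passed the test. The 2 largest were for the immunity-related GTPases, Iigp1 at 1.93-fold and Irgm1 at 1.57-fold, and the guanylate-binding proteins ranged from 1.11-fold for Gbp5 to 1.46-fold for Gbp6. The median log2 difference of the 9 was 0.36, against -0.0058 over the 20865 genes tested. In edgeR's quasi-likelihood test with Benjamini-Hochberg adjustment over those genes, 0 of the 9 passed 0.05, where 0% of all genes passed as higher and 0.00959% passed in either direction. At an unadjusted p under 0.05 there were 3 of the 9 (Gbp6, Iigp1 and Irgm1), against 8.11% of all genes in that direction. The same 3 genes had groups that did not overlap in FPKM, with the Cre-labelled group on top, which held for 14.1% of all genes; the opposite order held for 0 of the 9 and for 8.8% of all genes. DESeq2 called 2 of the 9, Irgm1 and Iigp1 (DESeq2 adjusted p = 0.0154 and 0.0491), and 3.12% of the genes with an adjusted p as higher (8.03% in either direction). With GFP-labelled libraries 2 and 3 against Cre-labelled library 1, the median of the 9 genes was -0.030. In that setting 5 of the 9 were lower in the Cre-labelled library. These are the 3 libraries in which the kidney, testis and muscle sums were all at their lower level (at most 37.3, 2.05 and 11.7 CPM). Their PVH marker sums were not alike, at 580 and 620 CPM against 167 CPM, and Cre-labelled library 1 had the most CT010467.

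**Figure D1:**
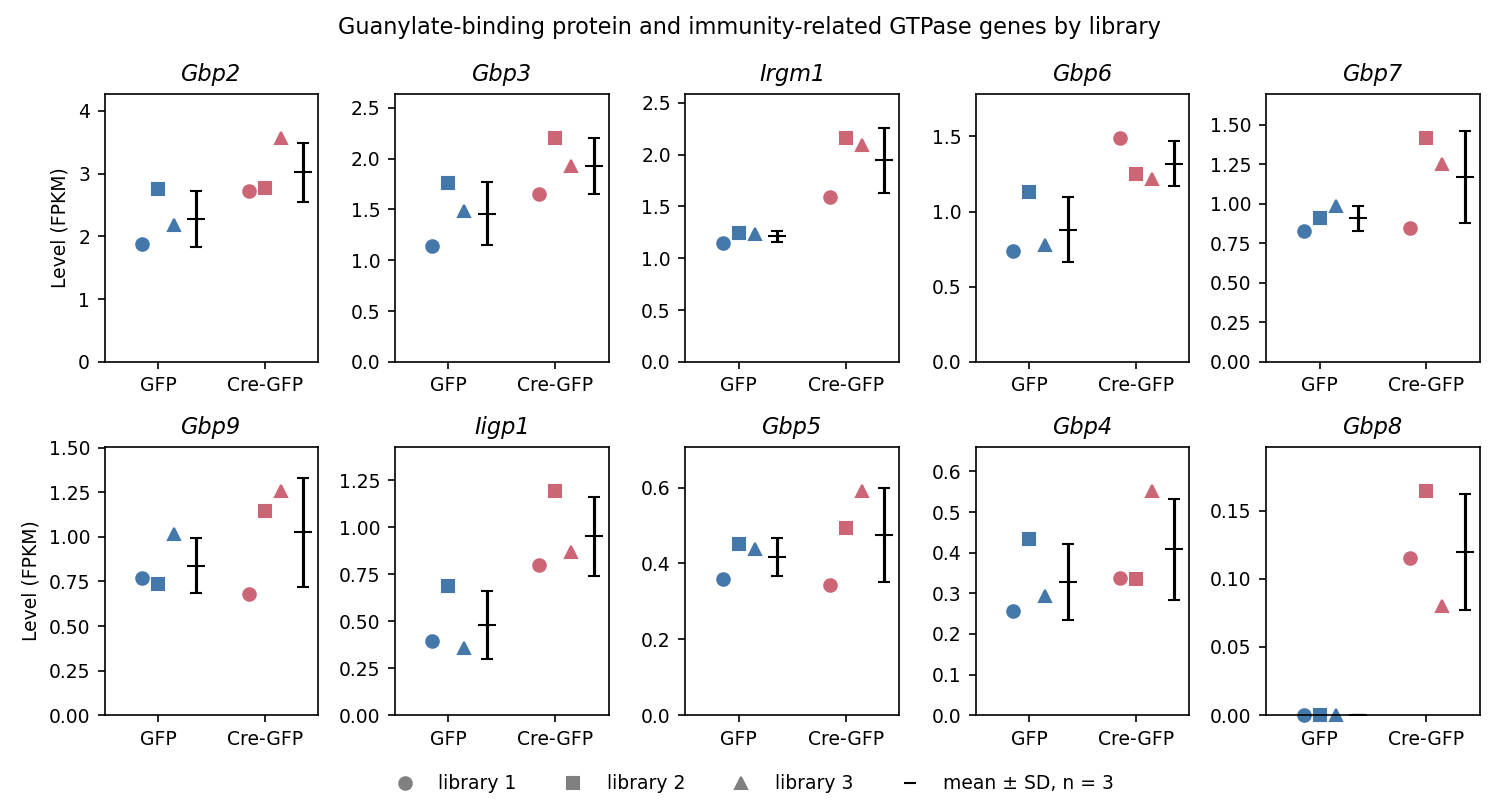
Level of each gene in FPKM (vertical axes, each from 0) in the GFP-labelled (blue) and Cre-labelled (red) libraries. Symbols mark libraries 1 to 3 and black bars the mean ± SD (n = 3). The groups are apart for Irgm1, Gbp6 and Iigp1, and for Gbp8, which was chosen for having counts in 1 group only. They overlap for the other 6 genes.

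By level per gene length over all 6 libraries, Gbp2 was the top gene at 2.65 ± 0.578 FPKM (SD, n = 6), followed by Gbp3, Irgm1, Gbp6, Gbp7, Gbp9, Iigp1, Gbp5 and Gbp4, with Gbp8 lowest at 0.0598 ± 0.0708 FPKM (SD, n = 6). The ranges of neighbours in this order overlapped in every case except Gbp4 and Gbp8. All 9 genes other than Gbp8 had at least 99 counts in every library. Most of the highest values fell in 2 libraries: 4 of the 9 genes were highest in Cre-labelled library 2, 4 in Cre-labelled library 3, and Gbp6 in Cre-labelled library 1. On CPM after TMM scaling, which aligns the libraries' composition, GFP-labelled library 1 was the lowest for 5 of the 9 and Cre-labelled library 1 for 3. On that scale the median log2 deviation of the 9 genes from their own means was -0.44, 0.078 and -0.22 for GFP-labelled libraries 1 to 3, and -0.051, 0.34 and 0.40 for Cre-labelled libraries 1 to 3. Cre-labelled library 1 thus lay below GFP-labelled library 2 on this measure.

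**Figure D2:**
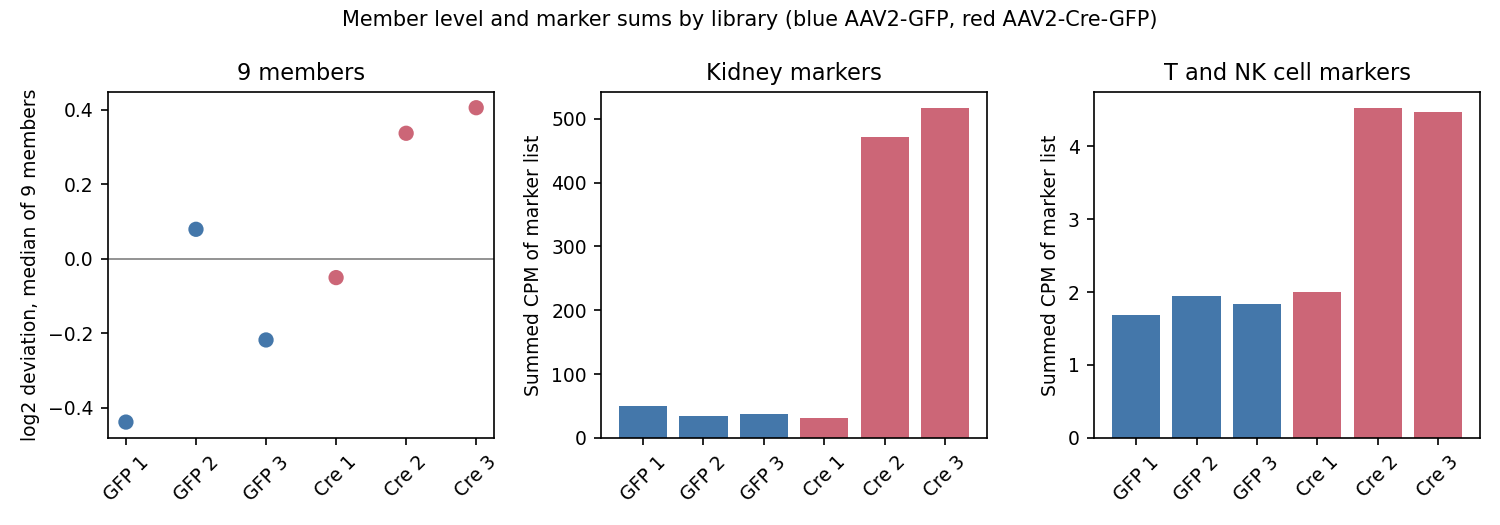
Left, the median log2 deviation of the 9 genes from their means by library; middle and right, summed CPM of 8 kidney markers and 9 T and NK cell markers. Blue stands for GFP-labelled and red for Cre-labelled libraries. Cre-labelled libraries 2 and 3 are highest in all 3 panels.

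Among the immunity-related GTPases, Irgm1 is a regulator that sits on the cell's own membranes and holds the effector GTPases inactive there. Its level was 1.15, 1.25 and 1.23 FPKM in the GFP-labelled libraries 1 to 3 and 1.59, 2.16 and 2.09 FPKM in the Cre-labelled ones. The GFP-labelled libraries lay close together, all 3 Cre-labelled libraries stood above them, and library 1 was the lowest of these. Group means were 1.21 ± 0.0520 and 1.95 ± 0.313 FPKM (SD, n = 3), a log2 difference of 0.65 ± 0.16 (SE; 95% interval 0.28 to 1.02; edgeR adjusted p = 0.123). The gene (ENSMUSG00000046879) occupies bases 48861968 to 48871683 of chromosome 11, minus strand (GRCm38). Only 2.20% of the 31-base words in its transcripts occur in any other gene of the GENCODE M21 transcripts.

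Iigp1, also named Irga6, is an effector GTPase that coats the vacuole of Toxoplasma and helps to break it. It stood at 0.396, 0.687 and 0.359 FPKM in the GFP-labelled libraries and at 0.798, 1.19 and 0.865 FPKM in the Cre-labelled ones. Library 2 was the highest of its group in both cases, and the lowest Cre-labelled value was above the highest GFP-labelled one. The means were 0.481 ± 0.180 and 0.951 ± 0.209 FPKM (SD, n = 3) and the log2 difference was 0.95 ± 0.30 (SE; 95% interval 0.25 to 1.65; edgeR adjusted p = 0.181). The gene (ENSMUSG00000054072) occupies bases 60376027 to 60392634 of chromosome 18, plus strand, and 6.90% of its words occur in other genes, mostly in its neighbour Gm4951. With GFP-labelled libraries 2 and 3 against Cre-labelled library 1 the log2 differences of Iigp1 and Irgm1 were 0.56 and 0.30.

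Of the 10 genes, 4 lie on the plus strand of chromosome 3 in the order Gbp5, Gbp7, Gbp3 and Gbp2, between 142493978 and 142638008. Gbp2 and Gbp5 carry a lipid anchor and act in the release of bacterial DNA and in inflammasome activation. Gbp2 (ENSMUSG00000028270) stood at 1.88, 2.76 and 2.18 FPKM with AAV2-GFP, and at 2.72, 2.77 and 3.56 FPKM with AAV2-Cre-GFP, in libraries 1 to 3 of each. GFP-labelled library 2 was level with the 2 lower Cre-labelled libraries, and the log2 difference was 0.37 ± 0.20 (SE; edgeR adjusted p = 0.394). Gbp3 (ENSMUSG00000028268) stood at 1.14, 1.76 and 1.48 FPKM against 1.65, 2.20 and 1.93 FPKM, a log2 difference of 0.36 ± 0.22 (SE; edgeR adjusted p = 0.444). Cre-labelled library 1 fell inside the GFP-labelled range for Gbp3.

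Gbp7 (ENSMUSG00000040253), whose product takes subunits of the NADPH oxidase to phagosomes, was nearly level in 4 libraries and higher in the other two. It stood at 0.828, 0.909 and 0.984 FPKM in the GFP-labelled libraries, at 0.848 FPKM in Cre-labelled library 1, and at 1.41 and 1.25 FPKM in Cre-labelled libraries 2 and 3. Gbp5 (ENSMUSG00000105504), which promotes assembly of the NLRP3 inflammasome, showed the smallest difference, with 0.359, 0.452 and 0.437 FPKM against 0.344, 0.493 and 0.590 FPKM. Its lowest value of all was in Cre-labelled library 1 and its highest in Cre-labelled library 3. The log2 differences of Gbp7 and Gbp5 were 0.33 ± 0.22 and 0.16 ± 0.26 (SE; edgeR adjusted p = 0.494 and 0.811). The interval of Gbp5 ran from -0.45 to 0.76 in log2, so both a lower and a higher level lie inside it. Without Cre-labelled library 3 the log2 difference of Gbp5 was -0.015. The summed counts of the Gbp genes on chromosome 3, with Gbp2b and Gbp2-ps included, had a log2 difference of 0.33 ± 0.15 (SE; edgeR adjusted p = 0.325), or -0.079 with GFP-labelled libraries 2 and 3 against Cre-labelled library 1; this sum was chosen after seeing the data.

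The bases just upstream of the start site are shown for the 5 of 10 genes that RefSeq's promoter table (GRCm38.p6) holds, since all 5 contain letters of the interferon-stimulated response element (ISRE), to which IRF factors bind. The letters searched, on both strands of the 250 bases before each start, were GAAA, any 2 bases and GAAA for the ISRE, and TTC, any 3 bases and GAA for the gamma-activated site (GAS) of interferon gamma targets. ISRE letters were found in 5 of the 5, against 2.98% of 32851 promoter windows of that length, and GAS letters in 2 of the 5, against 7.02%. Capitals mark the matches, each sequence is written 5′ to 3′ on the gene's strand, and the 2 ISRE matches in Gbp3 and in Irgm1 overlap each other. The stretches lie at chr3:142620544-142620623 (plus strand), chr3:142559939-142560024 (plus), chr3:142496684-142496900 (plus), chr3:142530220-142530302 (plus) and chr11:48871425-48871510 (minus).
Gbp2: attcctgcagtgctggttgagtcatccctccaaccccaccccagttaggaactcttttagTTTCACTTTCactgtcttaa
Gbp3: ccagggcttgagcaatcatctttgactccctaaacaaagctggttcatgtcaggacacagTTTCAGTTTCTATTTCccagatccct
Gbp5: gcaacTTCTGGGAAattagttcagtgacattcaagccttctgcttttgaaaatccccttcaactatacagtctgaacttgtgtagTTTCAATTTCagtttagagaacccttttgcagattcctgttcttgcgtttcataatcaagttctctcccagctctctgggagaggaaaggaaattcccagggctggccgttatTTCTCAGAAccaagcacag
Gbp7: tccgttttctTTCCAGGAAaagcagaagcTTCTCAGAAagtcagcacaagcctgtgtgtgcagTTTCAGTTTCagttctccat
Irgm1: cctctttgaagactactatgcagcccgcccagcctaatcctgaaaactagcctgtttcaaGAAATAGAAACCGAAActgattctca

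The ISRE letters began 59 bases before the start site in Gbp2, 45 and 39 in Gbp3, 53 in Gbp7, 30 and 24 in Irgm1 and 165 in Gbp5. In 4 of the 5 genes they lay within 60 bases of the start, and in Gbp5 farther out, with GAS letters at 245 and 52 bases. The Gbp5 window, 142496684 to 142496933, lies inside the gene as listed, which starts at 142493978, so its distances refer to the RefSeq start only. Gbp7 had GAS letters at 106 and 87 bases. For Gbp2 and Irgm1 the matches fall inside an exon of a GENCODE M21 transcript that starts farther upstream than the RefSeq one. These matches also lie inside the genes as listed, so their distances too refer to the RefSeq start only. The second RefSeq start of Gbp3 had neither set of letters. Of the 5 genes, only Irgm1 had groups that did not overlap, while Gbp2, Gbp3, Gbp5 and Gbp7 carry the letters and overlapped. A match describes letters and does not show binding.

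**Figure D3:**
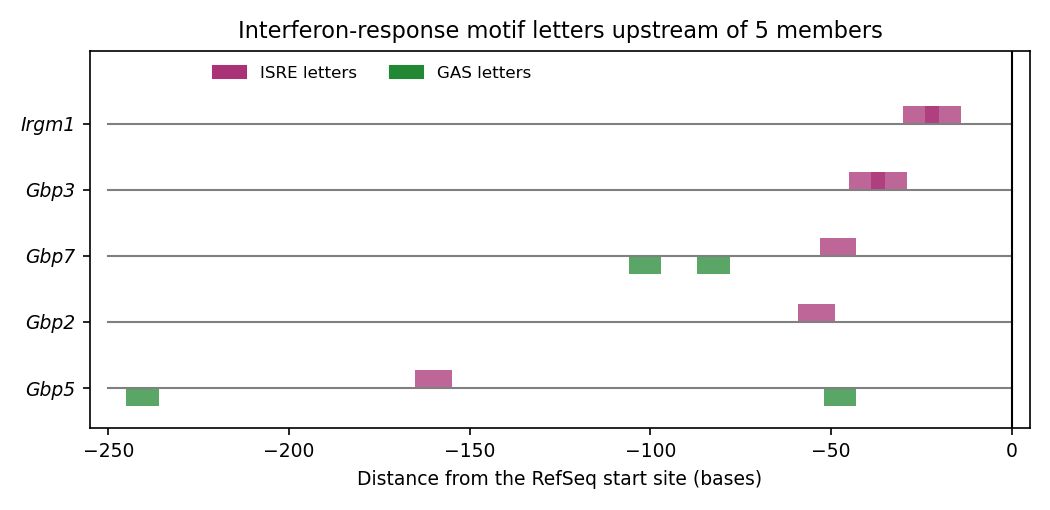
Positions of ISRE letters (purple) and GAS letters (green) in the 250 bases before the RefSeq start site of 5 genes; the horizontal axis is the distance from the start in bases. The ISRE letters of Irgm1, Gbp3, Gbp7 and Gbp2 lie within 60 bases of the start and those of Gbp5 begin at 165 bases; the GAS letters of Gbp7 begin at 106 and 87 bases.

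The other 4 guanylate-binding protein genes lie on the minus strand of chromosome 5, Gbp8 at 105014150 to 105053556, Gbp9 at 105077630 to 105110277, Gbp4 at 105115767 to 105139586 and Gbp6 at 105270702 to 105293696 (GRCm38). Of the 31-base words in their transcripts, 74.2% in Gbp6, 31.1% in Gbp8, 18.3% in Gbp9 and 14.3% in Gbp4 occur in another gene, where the genes of chromosome 3 range from 3.05% in Gbp5 to 14.7% in Gbp7. Counts of these genes are uncertain to the extent that reads from shared stretches were divided among them. Gbp9 (ENSMUSG00000029298) stood at 0.768, 0.735 and 1.02 FPKM against 0.680, 1.14 and 1.25 FPKM, and Gbp4 (ENSMUSG00000079363) at 0.256, 0.434 and 0.294 FPKM against 0.338, 0.336 and 0.551 FPKM. Both overlapped between the groups, with log2 differences of 0.26 ± 0.27 and 0.28 ± 0.31 (SE; edgeR adjusted p = 0.683 and 0.688). Gbp9 was lowest of all in Cre-labelled library 1. Without Cre-labelled library 3 the log2 differences were 0.10 for Gbp9 and 0.023 for Gbp4, and Gbp4 was at 0.53 without GFP-labelled library 2.

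Gbp6 (ENSMUSG00000104713) stood at 0.737, 1.13 and 0.776 FPKM in the GFP-labelled libraries and at 1.49, 1.25 and 1.21 FPKM in the Cre-labelled ones, where library 1 was the highest. The means were 0.880 ± 0.216 and 1.32 ± 0.148 FPKM (SD, n = 3) and the log2 difference was 0.54 ± 0.20 (SE; 95% interval 0.070 to 1.01; edgeR adjusted p = 0.239). A second model on the same strand, Gm43302, spans both Gbp6 and Gbp10 (105214907 to 105293695), and 95.7% of its words occur in Gbp6. Gm43302 held 114, 122 and 124 counts in the GFP-labelled libraries, 0 in Cre-labelled library 1 and 257 and 314 in Cre-labelled libraries 2 and 3. Library 1, with no count for Gm43302, was the Cre-labelled library in which Gbp6 and Gbp10 were highest, at 10.3 and 2.98 CPM. Summed over the 3 models, a step chosen after seeing the data, the level was 8.55, 11.6 and 8.20 CPM in the GFP-labelled libraries and 13.3, 15.8 and 15.6 CPM in the Cre-labelled ones. The groups did not overlap for the sum either, and its log2 difference was 0.61 ± 0.17 (SE; edgeR adjusted p = 0.145), or 0.36 with GFP-labelled libraries 2 and 3 against Cre-labelled library 1. In the sum Cre-labelled library 1 was the lowest of its group, as it was for Irgm1, Iigp1, Gbp2, Gbp3, Gbp5, Gbp7 and Gbp9.

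**Figure D4:**
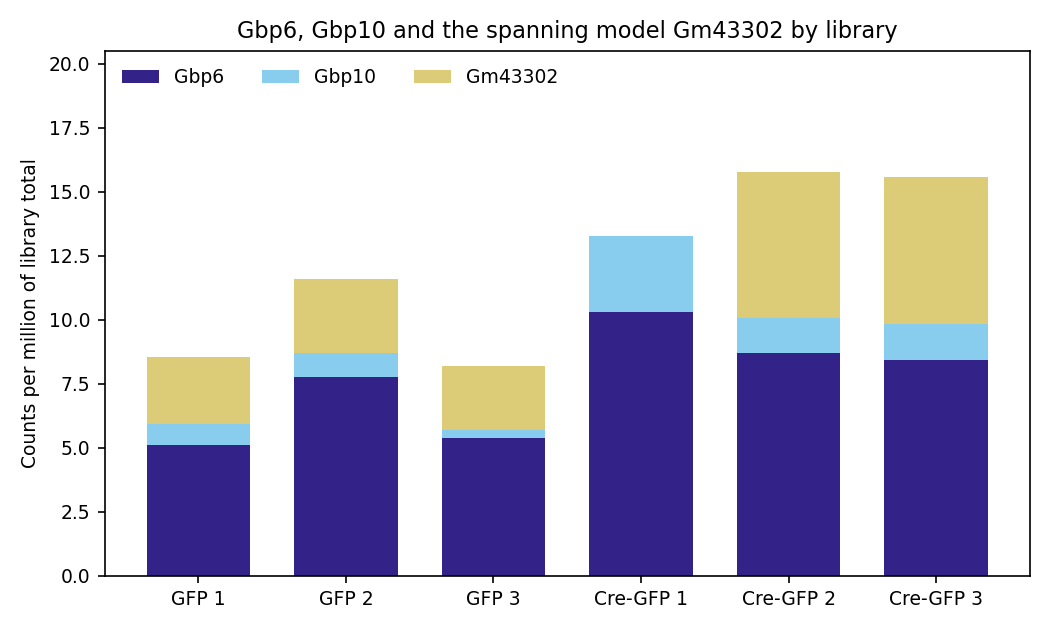
CPM (vertical axis) assigned to Gbp6, Gbp10 and the spanning model Gm43302, stacked for each library. Cre-labelled library 1 has no Gm43302 count, and the stacks reach 8.20 to 11.6 CPM in the GFP-labelled and 13.3 to 15.8 CPM in the Cre-labelled libraries.

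Gbp8 (ENSMUSG00000034438) was without counts in all 3 GFP-labelled libraries and held 20, 30 and 19 counts in Cre-labelled libraries 1, 2 and 3, or 0.115, 0.164 and 0.0800 FPKM. It was chosen for this pattern, which is therefore given without a test. Its summed Cre-labelled level was 0.487 CPM, where 3 counts over the whole GFP-labelled group would be 0.0222 CPM. Since Gbp8 was chosen for having no counts in the GFP-labelled group, no minimum difference follows from these levels. Of all genes listed, 8 had no count in the GFP-labelled libraries and at least 10 counts in each Cre-labelled library, and 0 had the opposite pattern; with at least 1 count in each library of the other group the numbers were 136 and 77. Even in Cre-labelled library 2, where Gbp8 was highest, its level was below that of Gbp4, the next gene in the order, at 0.336 FPKM there. Gbp8 shares 15.5% of its words with Gbp11 and 13.7% with Gbp9. Gbp2b on chromosome 3 was also without counts in the GFP-labelled libraries, but held only 4 counts, all in Cre-labelled library 1.

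**Figure D5:**
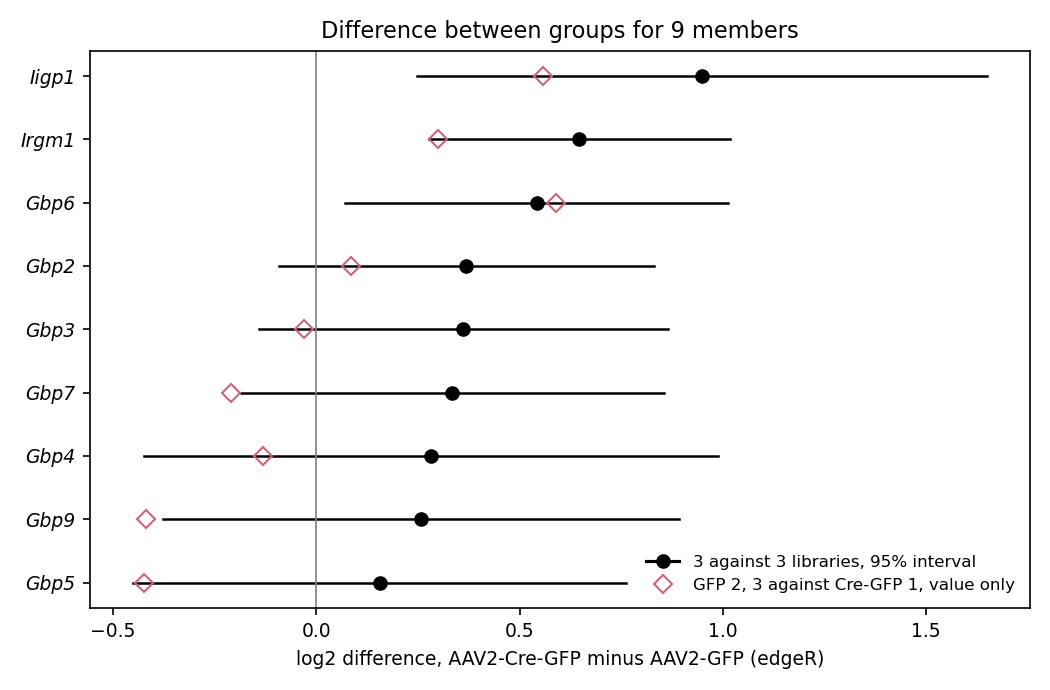
Log2 difference, Cre-labelled minus GFP-labelled (horizontal axis, edgeR), for the 9 genes other than Gbp8; black points and lines are estimates and 95% intervals from 3 against 3 libraries, and red diamonds are values from GFP-labelled libraries 2 and 3 against Cre-labelled library 1. The intervals of Iigp1, Irgm1 and Gbp6 lie above 0, and 5 of the 9 diamonds lie below 0.

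Further genes of both families were taken from a list of 15, of which 14 are in the table and 10 were tested. None passed in edgeR, 9 of the 10 had a higher and 1 a lower estimate in the Cre-labelled libraries, and the median log2 difference was 0.60. The regulators Igtp and Irgm2 on chromosome 11 differed by 0.66 ± 0.22 and 0.54 ± 0.21 (SE; edgeR adjusted p = 0.191 and 0.245). Igtp stood at 1.69, 2.93 and 2.34 FPKM against 3.80, 3.94 and 3.55 FPKM, without overlap, and here Cre-labelled library 3, not library 1, was the lowest of its group. The 2 models overlap on the same strand, so their reads can be assigned to either. For the sum of both, chosen after seeing the data, the log2 difference was 0.60 ± 0.17 (SE; edgeR adjusted p = 0.157), or 0.44 with GFP-labelled libraries 2 and 3 against Cre-labelled library 1.

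The effector genes Tgtp1 and Tgtp2, near-identical copies that encode Irgb6, followed the pattern of Cre-labelled libraries 2 and 3 most plainly. Tgtp1 stood at 0.119, 0.517 and 0.427 FPKM in the GFP-labelled libraries and at 0.282, 1.61 and 1.60 FPKM in the Cre-labelled ones, and Tgtp2 at 0.210, 0.482 and 0.540 against 0.391, 1.35 and 1.37 FPKM. Cre-labelled library 1 lay inside the GFP-labelled range for both. Reads from near-identical copies can be assigned to either, so the 2 genes are not separate observations of this pattern. Their log2 differences were 1.68 ± 0.72 and 1.29 ± 0.54 (SE; edgeR adjusted p = 0.282 and 0.276). Ifi47, the GTPase Irgd, differed by 0.89 ± 0.72, Gbp10 by 1.41 ± 0.50, Gbp11 by 0.17 ± 0.43, Gm4951 by 0.23 ± 0.43 and the very large interferon-inducible GTPase Gvin1 by 0.38 ± 0.20 (SE; edgeR adjusted p between 0.213 and 0.876).

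The 1 gene with a lower estimate was Irgq, a divergent family member that interferon does not induce. It stood at 15.6, 17.4 and 17.2 FPKM in the GFP-labelled and 13.6, 13.1 and 14.5 FPKM in the Cre-labelled libraries, without overlap. Its log2 difference was -0.33 ± 0.066 (SE; edgeR adjusted p = 0.0908; DESeq2 adjusted p = 0.00127). Irgc1, a testis GTPase of the family, had 1153 counts in GFP-labelled library 1, the library with testis markers, and at most 7 counts in any other. Gm12250 had at most 34 counts and F830016B08Rik at most 12 counts in any library.

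The pathway upstream was followed in fixed lists, with no gene past the threshold in edgeR in any of them. Of 14 tested interferon gamma signalling genes 9 had a higher and 5 a lower estimate, with a median log2 difference of 0.11. Ifngr1, the ligand-binding chain of the interferon gamma receptor, stood at 4.62, 4.37 and 4.38 against 5.93, 5.70 and 5.65 FPKM (edgeR adjusted p = 0.139). Irf1, which encodes a factor that drives many Gbp genes, stood at 1.49, 1.98 and 1.88 against 2.25, 2.14 and 2.67 FPKM (edgeR adjusted p = 0.315). The cytokine gene Ifng itself had 3, 0 and 8 counts against 4, 7 and 6 counts and did not enter the test.

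All 8 tested genes of type I interferon signalling had a higher estimate, with a median of 0.13. The 2 with the smallest p were Irf7, a transcription factor that amplifies the response, at 0.405, 0.561 and 0.496 against 0.895, 0.973 and 1.07 FPKM, and Irf9 at 2.14, 2.73 and 2.50 against 3.44, 3.32 and 3.76 FPKM (edgeR adjusted p = 0.113 and 0.121; DESeq2 adjusted p = 0.0202 and 0.0191). The largest difference in the list was that of Usp18, an inhibitor of the type I receptor, at 1.06 ± 0.45 in log2 (SE; edgeR adjusted p = 0.284), with overlapping groups. Of 24 other interferon-stimulated genes 21 had a higher and 3 a lower estimate, with a median of 0.56. Ifit3, which restricts viral RNA, ran from 5.48 to 7.30 FPKM in the GFP-labelled and from 9.47 to 11.7 FPKM in the Cre-labelled libraries. Isg15, a ubiquitin-like modifier, ran from 0.939 to 1.39 and from 2.74 to 3.60 FPKM. For Ifit3 and Isg15 the edgeR adjusted p was 0.0793 and 0.111, and the DESeq2 adjusted p was 0.000473 and 0.0298.

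Genes that act with these GTPases did not share a direction. Of 8 inflammasome and pyroptosis genes 4 had a higher and 4 a lower estimate, with a median of -0.090. Casp1, the inflammasome protease, and Il18, one of its substrates, had the smallest p, with log2 differences of -0.58 ± 0.30 and 0.22 ± 0.13 (SE; edgeR adjusted p = 0.377 and 0.446). Of 10 autophagy conjugation genes, whose products place the GTPases on vacuoles, 5 had a higher and 5 a lower estimate, with a median of -0.023. Map1lc3a and Gabarapl1, which encode ubiquitin-like proteins of autophagosomes, had log2 differences of -0.38 ± 0.070 and -0.31 ± 0.071 (SE; edgeR adjusted p = 0.0793 and 0.111; DESeq2 adjusted p = 0.000415 and 0.000652).

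Markers of cells that could supply these transcripts were set beside them, and in bulk tissue more cells of a type and more RNA per cell cannot be told apart. The 8 endothelial markers summed to between 153 and 190 CPM in the GFP-labelled and between 161 and 214 CPM in the Cre-labelled libraries, with the highest sums in Cre-labelled libraries 2 and 3 (195 and 214 CPM). Of these markers 5 had a higher and 3 a lower estimate, with Cldn5 at a log2 difference of -0.14 ± 0.14 and Ly6c1, which is itself interferon-inducible, at 0.56 ± 0.16 (SE; edgeR adjusted p = 0.658 and 0.149). Pecam1, an adhesion molecule of endothelial junctions, stood at 2.18, 2.34 and 2.49 FPKM against 2.37, 3.70 and 3.43 FPKM (edgeR adjusted p = 0.285), so it too was highest in Cre-labelled libraries 2 and 3. The 8 microglial markers summed to 296 to 341 and 324 to 347 CPM, and Aif1 differed by -0.89 ± 0.57 (SE; edgeR adjusted p = 0.477), with GFP-labelled library 1 at 7.39 FPKM and the other 5 at 1.49 to 2.33 FPKM. The 8 astrocyte markers summed to 4165 to 4270 and 4206 to 4581 CPM, with Gfap at 0.26 ± 0.13 (SE; edgeR adjusted p = 0.381). Summed over 6 neuronal markers the level was 4302 to 4402 CPM and 3763 to 3935 CPM, without overlap. The 9 T and NK cell markers summed to 1.69, 1.95 and 1.84 CPM in the GFP-labelled libraries and to 2.01, 4.52 and 4.48 CPM in the Cre-labelled ones. This sum was highest in the same 2 libraries as most of the Gbp genes, Tgtp1, Tgtp2 and the kidney markers. The 2 high sums rest only in part on the same genes. Cd4 and Nkg7 were highest in both libraries. Trbc2 gave 2.06 CPM in Cre-labelled library 2 but 0.457 CPM in Cre-labelled library 3, its lowest value in any library. None of the 9 was without counts in all libraries, 7 (Cd3e, Cd3d, Cd3g, Cd8a, Nkg7, Gzma and Gzmb) had no count in at least 1 library, and Cd3e had no count in Cre-labelled library 1. The part of these cells, of the ribosomal RNA and of the kidney transcripts in the levels of the Gbp and Irg genes was not tested.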

How the data were processed

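Poly(A) RNA was made into dUTP-marked libraries with molecular identifiers and sequenced as read pairs, per the labels' protocols. Tools named in the submitters' processing notes are HISAT2, StringTie and cutadapt; how strand and the identifiers entered the counting was not given in the sources used here. The build named there is mm9. Of 35024 identifiers also in GENCODE M21 (GRCm38), 91.4% have identical start and end, as do 7 of the 10 genes described; coordinates are given as GRCm38. The counts deposited by the authors are whole numbers per gene with no normalization. FPKM, also deposited by the authors, scales them by gene length and library total and is used here for levels; CPM was computed from the counts and library totals.

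Counts were tested in edgeR 4.0.16 (R 4.3.3; quasi-likelihood test, TMM, filterByExpr with a minimum count of 10, 20865 genes, no covariates, two-sided, Benjamini-Hochberg, threshold 0.05). The common biological coefficient of variation was 27.1%. Alternatives were DESeq2 1.42.0, other factors, filters and fits, left-out libraries, and limma 3.58.1 on log2(FPKM + 0.5) above a mean of 0.1 FPKM; that scale understates changes of low genes. The scripts were tested on simulated data. The chi-square statistic per gene was 11.4 or more between any libraries of a group, for genes totalling 20 counts or more in the pair, so none was a copy.

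The members and lists were chosen with earlier results of these data known. Named were the 10 members; the further family genes; from each other pathway list up to 4 genes past the threshold, or the 2 with the smallest p; and Ruvbl2, Irf1, Ifng, Aif1, Cldn5, Gfap and Cd3e. Genes overlapping members, CT010467, Ly6c1, Pecam1, Usp18 and the marker genes without counts were named after their values were seen. 1 gene of these lists is not reported here.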

Additional observations from a re-analysis of the deposited data

How the results depend on the processing

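The direction of all 9 genes was the same with DESeq2, relative log expression factors, no filter, a minimum count of 20, a robust fit, the replicate block, and limma on FPKM with each pseudocount and filter. Of the 9 genes, 0 passed in every alternative except DESeq2, which called 2. In DESeq2 9 other genes of the pathway and family lists passed, 6 as higher and 3 as lower. The higher ones were 4 of the 24 other interferon-stimulated genes and 2 of the 8 type I interferon signalling genes. The lower ones were 2 of the 10 autophagy conjugation genes and 1 of the 10 further family genes. Over all genes with an adjusted p, 3.12% passed as higher and 8.03% in either direction. Of all genes 0 passed as higher and 2 as lower in edgeR, 514 and 808 in DESeq2, 8 and 14 with a robust fit, 4 and 6 at a minimum count of 20, 3 and 6 with relative log expression factors, and 245 and 51 without Cre-labelled library 1. With GFP-labelled libraries 2 and 3 against Cre-labelled library 1, where the lone library is assumed to vary like the others, the median was -0.030, 5 list genes passed, and Gbp3 (-0.030), Gbp4 (-0.13), Gbp5 (-0.42), Gbp7 (-0.21) and Gbp9 (-0.42) had a lower estimate. Without Cre-labelled libraries 2 and 3, a setting added after seeing the data, the median was 0.13 and Gbp5 (-0.32), Gbp7 (-0.13) and Gbp9 (-0.34) had a lower estimate. With 1 library left out the median was between 0.25 (AAV2-GFP 1 left out) and 0.53 (AAV2-GFP 2 left out), and Gbp5 between -0.015 (AAV2-Cre-GFP 3 left out) and 0.36 (AAV2-Cre-GFP 1 left out); the cause was not tested. With 1 library left out, the log2 difference was between 0.21 and 0.51 for Gbp3, 0.18 and 0.54 for Gbp7, 0.10 and 0.50 for Gbp9, 0.023 and 0.53 for Gbp4, and 0.57 and 0.79 for Irgm1. With the replicate number as a block the median was 0.37 and none of the 9 passed. The deviations of same-numbered libraries from their group means had correlations of -0.044, 0.012 and -0.022. With 3 libraries in each group, these values cannot show whether same-numbered libraries were handled together. At 99 counts or more per library, precision for the 9 genes is set by the spread among libraries more than by counting; Gbp8 rests on at most 30 counts.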
